A study of Mus musculus with 8 samples.

Results

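The tissue inhibitors of metalloproteinases (TIMPs) and 6 matrix metalloproteinases (MMPs) were examined in mouse microvascular endothelial cells (ECs) with and without the receptor LRP1. The members were the rows of the deposited table with the symbols Timp1, Timp2, Timp3, Timp4, Mmp2, Mmp3, Mmp9, Mmp11, Mmp13 and Mmp14, so they made up 10 of the 22520 genes listed. MMPs are zinc-dependent proteases that cut collagens, basement membrane and other matrix proteins, and most are made as inactive proenzymes. TIMPs bind the active site of MMPs and block it, while TIMP2 also helps MMP14, a membrane-bound protease, to activate pro-MMP2. In vessels this balance is known for its part in basement membrane turnover and sprouting, and LRP1 is known to take up several MMPs, TIMPs and their complexes from the cell surface.

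RNA sequencing covered 4 wild-type (WT) and 4 LRP1 knockout (LRP1 KO) libraries, numbered 1 to 4 within each group (WT 1 to 4 and LRP1 KO 1 to 4). All mice were littermates of strain C57BL/6 at postnatal day 14 by their labels, and by the same labels each library pooled heart, liver and lung cells, which by the study's methods were selected with beads against PECAM-1. The study itself speaks of liver ECs and of heart and lung ECs as separate preparations, so which organs a library holds rests on the labels alone. By the same methods both groups carried the floxed Lrp1 alleles (LRP1 f/f), the WT mice had no Cre (Cdh5-CreER-/-), and the LRP1 KO mice carried Cdh5-CreER+/-, a tamoxifen-inducible Cre driven by the promoter of the endothelial gene Cdh5. Cre is thus meant to act in cells that use this promoter, and no group carried CreER without the floxed alleles. The sources do not say whether each library came from a separate animal, so the p-values measure the spread between these libraries, which may be partly technical. Sums of Y-linked genes, given below, differed widely within each group, so neither group came from a single animal. Values are quantile-normalized fragments per kilobase scaled to the mapped fragments (FPKM), a level corrected for transcript length, and the depth behind them is unknown. Differences were tested with limma on log2(FPKM + 1), with the p-value adjusted over the 11389 genes with an FPKM of at least 1 in at least 4 libraries, and a gene passed the test at an adjusted p under 0.05.

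Lrp1 itself stood between 103.2 and 140.4 FPKM for WT but between 2.79 and 7.72 FPKM for LRP1 KO, so all 8 libraries matched their labels. The Lrp1 mean in LRP1 KO was 3.99% of that in WT. Cdh5, the gene of VE-cadherin, averaged 9.59 FPKM in WT, while Col1a2, a collagen gene of fibroblasts, averaged 882.4 FPKM. Of the 20 endothelial markers 17 were tested, while Sox17, Ptprb and Clec14a were under 1 FPKM in every WT library, Sox17 in all 8 libraries. Endothelial markers were thus partly low and stood beside abundant fibroblast transcripts. Lrp1 was low also in LRP1 KO libraries rich in such transcripts, as in library 4, which held 7.72 FPKM of Lrp1 and 954.8 FPKM of Col1a2. Whether Lrp1 was lost outside the endothelium was not tested. The summed FPKM of 18 macrophage markers was 339.9 to 366.4 in WT and 548.4 to 899.3 in LRP1 KO, with 10 of the 12 tested markers higher. Lgals3, which other cells also express, made up 73.2 to 83.5% of that sum in WT and 38.3 to 58.8% in LRP1 KO, and the other 17 markers summed to 56.2 to 98.0 FPKM in WT and 225.7 to 555.3 FPKM in LRP1 KO. Cd163, Clec4f, Fcgr1 and Cx3cr1 of that list were under 1 FPKM in every library. The summed FPKM of 11 mural cell markers was 670.5 to 836.4 in WT and 1039.9 to 1627.4 in LRP1 KO, with 4 of the 8 tested markers higher and none lower. Acta2 and Tagln made up most of that sum, at means of 360.4 and 298.1 FPKM in WT and 711.1 and 548.6 FPKM in LRP1 KO, while Pdgfrb was at 71.6 and 58.0 FPKM and did not pass. Rgs5 was under 1 FPKM on average in both groups, and Kcnj8 and Abcc9 were under it in every library. On the first principal component LRP1 KO library 4 lay at 0.102, away from the other LRP1 KO libraries at 17.2 to 27.3 and from WT at -24.1 to -12.9. In the same library the sum of 20 endothelial markers was 197.0 FPKM, within the WT range of 190.7 to 203.0, against 431.8 to 686.5 in the other LRP1 KO libraries. The sum of 14 fibroblast markers was 3852.0 FPKM there, 2446.7 to 3324.2 in the other LRP1 KO libraries and 3108.0 to 4372.1 in WT. Of the 13 tested fibroblast markers 3 were lower in LRP1 KO, Dpt, Pdgfra and Gsn, and none was higher. In a bulk library, fewer cells of a type and less RNA per cell cannot be told apart, and MMP and TIMP values are given below with the endothelial, macrophage or fibroblast marker level as a term. The part of the mural marker level in them was not tested. Over the 8 libraries the mural level had a Pearson's r of 0.72 with Timp1, 0.88 with Timp3, -0.97 with Timp4, -0.92 with Mmp11 and 0.89 with Mmp13. These coefficients share the difference between groups. Results that rest on LRP1 KO library 4 are given with and without it.

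Of the 10 members, 9 had values high enough to be tested, and 5 of these passed the test. Timp1, Timp3 and Mmp13 were higher in LRP1 KO, and Timp4 and Mmp11 were lower, while Timp2, Mmp2, Mmp3 and Mmp14 did not pass and Mmp9 was too low to be tested. For comparison, 13.6% of all tested genes passed, 6.27% higher and 7.31% lower. In all 5 members that passed, the groups did not overlap: 3 lay above WT in every LRP1 KO library, as did 8.84% of tested genes, and 2 lay below it, as did 10.7%, which together gives 19.6% of tested genes. At least 2-fold changes in log2(FPKM + 1) were seen for Timp4 and Mmp11, both lower, where 0.5% of tested genes were lower and 1.12% higher by this limit, or 1.62% in either direction. This limit depends on the 1 FPKM added before the log: with 0.1 FPKM added, Mmp13 also exceeded it, higher in LRP1 KO at 1.15 (limma adjusted p 0.0176), beside Timp4 at -2.31 and Mmp11 at -1.10, and 275 of all tested genes in place of 184 did. The median log2 fold change was 0.20 over the 4 TIMPs and -0.15 over the 5 tested MMPs, with -0.01 over all tested genes. Without LRP1 KO library 4 these medians were 0.22, -0.36 and -0.01.

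**Figure D1:**
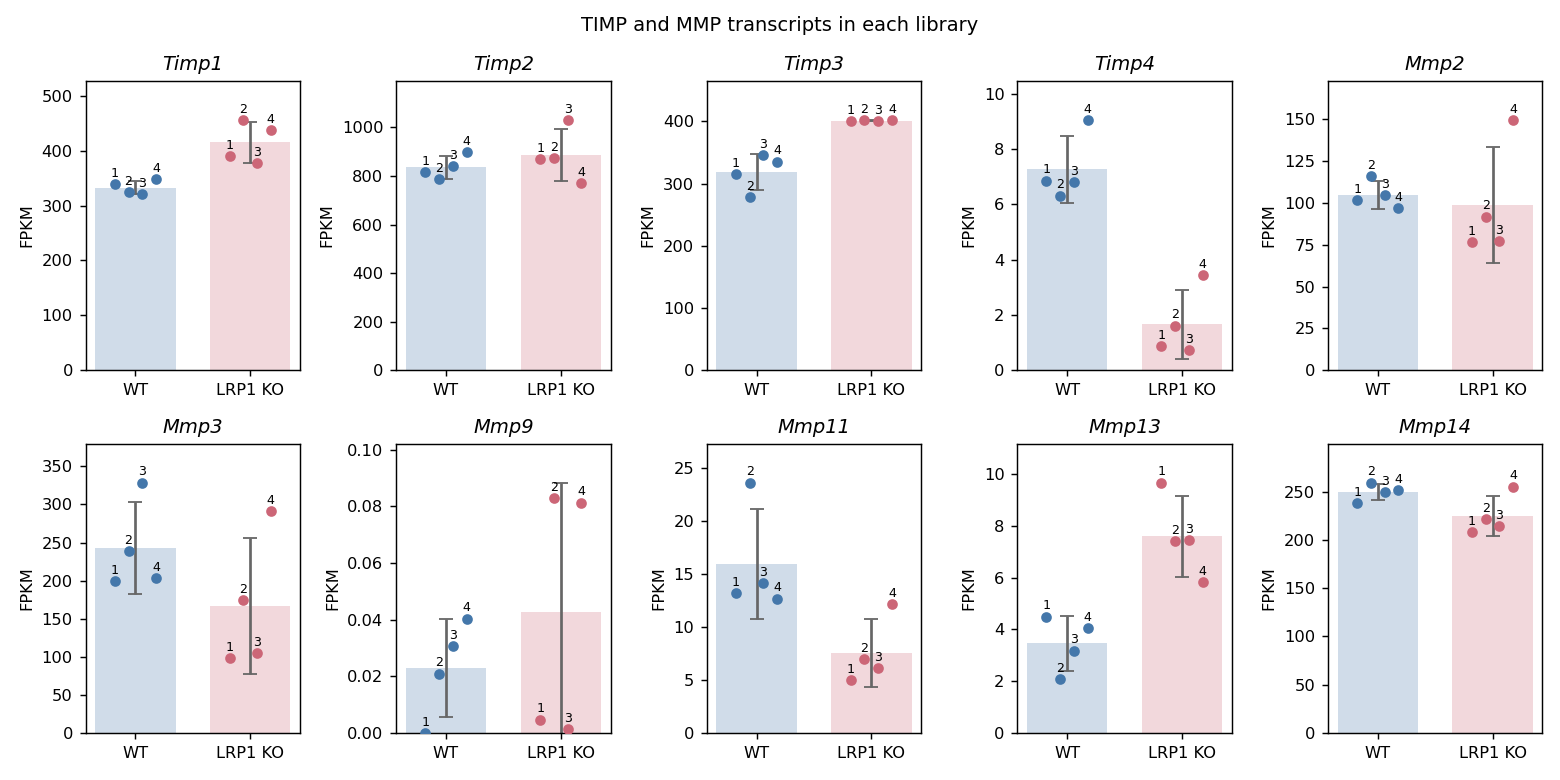
FPKM (vertical axes, each from 0 and on its own scale) of the 10 members in the 4 WT and 4 LRP1 KO libraries, where points carry the library number, bars are means and error bars are the SD, cut at 0 for Mmp9. Timp1, Timp3 and Mmp13 lie higher in every LRP1 KO library, and Timp4 and Mmp11 lower. LRP1 KO library 4 is the highest of its group for Timp4, Mmp2, Mmp3, Mmp11 and Mmp14.

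The start regions of 3 members are shown because Mmp13 and Mmp3, which lie in the same gene cluster, had opposite estimates, and because Timp4 had the largest change among the members. The sequences are the 250 bases before the annotated start from RefSeq (GRCm38.p6), which held such a region for 8 of the 10 members, without Mmp2 and Mmp9. Capitals mark matches to an AP-1 motif (TGANTCA), a forkhead motif of the FoxO type (GTAAACA, which the study's model makes of interest) and a TATA motif (TATAAA), each searched on both strands. The motifs do not overlap each other in these windows. The Mmp13 region is chr9:7272264-7272513 on the plus strand, that of Mmp3 is chr9:7445572-7445821 on the plus strand, and that of Timp4 is chr6:115252206-115252455 on the minus strand, each printed 5′ to 3′ along the gene.
Mmp13: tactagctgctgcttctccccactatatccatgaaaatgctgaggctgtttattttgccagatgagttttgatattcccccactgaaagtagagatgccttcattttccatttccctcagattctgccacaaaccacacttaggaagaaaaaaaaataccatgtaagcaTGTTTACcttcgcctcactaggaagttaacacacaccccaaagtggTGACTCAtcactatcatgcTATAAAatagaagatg
Mmp3: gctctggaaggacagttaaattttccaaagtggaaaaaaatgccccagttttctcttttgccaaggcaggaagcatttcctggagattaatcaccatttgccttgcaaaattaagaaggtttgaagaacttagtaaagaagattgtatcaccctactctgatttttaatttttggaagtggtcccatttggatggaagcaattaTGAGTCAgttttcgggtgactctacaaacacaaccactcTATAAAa
Timp4: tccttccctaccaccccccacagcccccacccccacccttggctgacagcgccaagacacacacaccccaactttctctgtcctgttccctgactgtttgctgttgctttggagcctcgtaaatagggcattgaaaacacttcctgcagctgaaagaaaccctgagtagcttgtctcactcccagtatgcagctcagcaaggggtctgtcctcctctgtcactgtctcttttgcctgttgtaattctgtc

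The Mmp13 region held the FoxO motif on the opposite strand with its first base 81 bases before the start, an AP-1 motif 35 bases before it and a TATA motif 16 bases before it. The Mmp3 region held an AP-1 motif 46 bases and a TATA motif 7 bases before the start. The Timp4 region and those of the other 5 members held none of the 3 motifs. Among 32851 mouse promoter windows of the same table and length, 6.75% held the AP-1 motif, 3.17% the FoxO motif and 12.4% the TATA motif. These matches describe letters in a window and were not set against binding data.

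The inhibitors are described first. Timp2, the most abundant of them, encodes a secreted inhibitor made by many cell types. Its values were 816.2, 786.2, 841.8 and 897.0 FPKM in WT 1 to 4 against 868.9, 874.3, 1031.5 and 771.4 FPKM in LRP1 KO 1 to 4. The groups overlapped, with library 4 of LRP1 KO the lowest of all 8 libraries and library 3 the highest. The means were 835.3 ± 47.0 and 886.5 ± 107.6 FPKM (SD, n = 4 each), a log2 fold change of 0.08 with a 95% interval of -0.12 to 0.28 (limma adjusted p 0.561). The interval thus leaves room for a modest change in either direction.

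Timp1 is a secreted inhibitor that is induced by cytokines and growth factors in many cells. Its values were 339.0, 323.9, 320.8 and 347.6 FPKM in WT 1 to 4 against 389.7, 456.2, 377.0 and 437.6 FPKM in LRP1 KO 1 to 4. No value of the groups overlapped, with LRP1 KO the higher. The Timp1 mean rose from 332.8 ± 12.6 to 415.1 ± 37.8 FPKM (SD, n = 4 each), a log2 fold change of 0.31 (SE 0.07, limma adjusted p 0.0240). The call was lost without WT library 2 (adjusted p 0.0722), WT library 3 (adjusted p 0.0559) or LRP1 KO library 2 (adjusted p 0.0689), with estimates of 0.30, 0.30 and 0.27. Timp1 lies on the X chromosome, and the labels give no sex. The summed FPKM of 4 Y-linked genes was 0.112 in WT library 4 and 0.0955 in LRP1 KO library 2 and 21.6 to 63.9 in the other 6 libraries. WT library 4 and LRP1 KO library 2 also had the highest Timp1 of their groups. With the level of the Y-linked genes as a term, chosen after seeing the data, Timp1 rose by 0.34 (limma adjusted p 0.0149).

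Timp3 differs from the other TIMPs in that its protein binds to the extracellular matrix. Its values were 314.8, 278.7, 345.9 and 335.6 FPKM in WT 1 to 4 against 400.6, 402.4, 400.6 and 402.4 FPKM in LRP1 KO 1 to 4. All LRP1 KO values were above all WT values and lay within 1 step of each other on the common ladder of values that quantile normalization imposes, at ranks 200 to 201 of their libraries. The SD of 1.08 FPKM in LRP1 KO therefore reflects equal ranks, and it was smaller than the 29.7 FPKM in WT. The mean rose from 318.7 to 401.5 FPKM, with a log2 fold change of 0.34 (SE 0.07, limma adjusted p 0.0183). Without LRP1 KO library 1, 2 or 3 the estimates were 0.34 each, with adjusted p-values of 0.0515, 0.0562 and 0.0505, so the call ended in these fits.

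Timp4 encodes the TIMP with the most restricted tissue pattern, known from the heart and from fat. It is also a gene that the study followed in these cells, so its fall is not independent evidence of its direction. Timp4 was listed at 6.86, 6.32, 6.82 and 9.06 FPKM in WT 1 to 4 against 0.861, 1.62, 0.715 and 3.43 FPKM in LRP1 KO 1 to 4. The LRP1 KO values all lay under the lowest WT value, and library 4 was the highest of the LRP1 KO group. The mean in LRP1 KO was 22.8% of that in WT, and Timp4 had a log2 fold change of -1.73 (SE 0.27, 95% interval -2.34 to -1.13, limma adjusted p 0.00623). The call held in all 8 fits that left out 1 library, and without LRP1 KO library 4 the estimate was -2.02. It ended with a fibroblast marker level as a term, at -1.22 (adjusted p 0.0598), and with a macrophage marker level, at -3.00 (adjusted p 0.109), while with an endothelial marker level it passed at a smaller estimate of -1.01 (adjusted p 0.0241).

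Most of the TIMP transcript came from 3 genes, and Timp4 added little to it. The summed FPKM of the 4 TIMPs was 1395.1 to 1589.2 in WT and 1614.8 to 1809.7 in LRP1 KO. Timp4 made up 0.450 to 0.570% of the sum in WT and 0.0395 to 0.212% in LRP1 KO. The fall of Timp4 by several FPKM thus stood beside larger rises of Timp1 and Timp3 in FPKM. Within each group Timp2 stood above Timp1 and Timp3 with no overlap, whereas the ranges of Timp1 and Timp3 overlapped.

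Among the proteases, Mmp14 and its substrate Mmp2 are considered together. Mmp14 encodes the membrane-bound protease MT1-MMP and Mmp2 encodes gelatinase A, which degrades denatured collagen and collagen IV. Mmp14 was listed at 238.4, 259.5, 249.2 and 251.6 FPKM in WT 1 to 4 against 207.9, 221.3, 214.7 and 255.2 FPKM in LRP1 KO 1 to 4. LRP1 KO libraries 1 to 3 lay below all WT libraries, and library 4 lay within the WT range. The estimate over all 8 libraries was -0.15 (SE 0.07, limma adjusted p 0.151), and with libraries weighted by their spread it was -0.20 and passed (limma adjusted p 0.0313). Without LRP1 KO library 4 it was -0.22 (limma adjusted p 0.0170).

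Mmp2 followed the same split within LRP1 KO. Its values were 101.9, 116.2, 104.7 and 96.8 FPKM in WT 1 to 4 against 76.8, 91.8, 77.0 and 149.7 FPKM in LRP1 KO 1 to 4. LRP1 KO library 4 was the highest of all 8 libraries, and the other LRP1 KO libraries were below all WT libraries. The means of 104.9 ± 8.24 and 98.8 ± 34.6 FPKM (SD, n = 4 each) did not differ beyond the spread (log2 fold change -0.14, 95% interval -0.57 to 0.29, limma adjusted p 0.639). Without LRP1 KO library 4 the estimate was -0.36 (limma adjusted p 0.0170).

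Mmp3 encodes stromelysin-1, which cuts many matrix proteins and activates other proMMPs. Its values were 199.8, 238.4, 328.8 and 203.6 FPKM in WT 1 to 4 against 98.4, 174.1, 104.9 and 291.1 FPKM in LRP1 KO 1 to 4. Again LRP1 KO libraries 1 to 3 were below every WT library and library 4 was inside the WT range. The estimate was -0.65 (SE 0.32, limma adjusted p 0.188), and without LRP1 KO library 4 it was -0.96 (limma adjusted p 0.0159). With that library left out, 8 of the 9 tested members passed, all but Timp2, where 26.5% of all tested genes passed.

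Mmp11 encodes stromelysin-3, which is activated by furin inside the cell. Its values were 13.2, 23.6, 14.1 and 12.7 FPKM in WT 1 to 4 against 4.96, 6.98, 6.08 and 12.2 FPKM in LRP1 KO 1 to 4. No LRP1 KO value reached a WT value, but LRP1 KO library 4 came within 1 FPKM of WT library 4. The mean in LRP1 KO was 47.4% of that in WT, and the log2 fold change was -1.01 (SE 0.26, limma adjusted p 0.0340). This call was lost on leaving out any library but LRP1 KO library 4, with adjusted p-values of 0.0503 to 0.0954 and estimates of -1.10 to -0.81. Without LRP1 KO library 4 the estimate was -1.24 (adjusted p 0.00358). The call was also lost with the replicate number as a block (limma adjusted p 0.0525), without the filter on low values (0.0725) and with the Y-linked term (0.0569).

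Mmp13 encodes collagenase-3, which cuts fibrillar collagens. Its values were 4.49, 2.09, 3.18 and 4.06 FPKM in WT 1 to 4 against 9.67, 7.40, 7.45 and 5.84 FPKM in LRP1 KO 1 to 4. The lowest LRP1 KO value exceeded the highest WT value. The mean was 220% of that in WT, with a log2 fold change of 0.96 (SE 0.19, 95% interval 0.54 to 1.39, limma adjusted p 0.0153). The call held in all 8 fits that left out 1 library. It ended with the endothelial, macrophage or fibroblast marker level as a term (limma adjusted p 0.298, 0.160 and 0.183). By level in FPKM, Mmp11 stood above Mmp13 in WT without overlap, whereas in LRP1 KO the ranges of both genes overlapped.

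Mmp9 encodes gelatinase B, which is abundant in neutrophils and macrophages. It was listed between 0 and 0.0404 FPKM for WT and between 0.00123 and 0.0829 FPKM for LRP1 KO, so it was at or near 0 in every library. An exact two-sided permutation test over the 8 libraries gave p = 0.429 (n = 4 each), where 0.0286 is the smallest value the design allows. At unknown depth no absence can be inferred from these values. Of 10 neutrophil markers, S100a8 was the only one tested and was higher in LRP1 KO, at means of 0.813 and 2.52 FPKM (log2 fold change 0.94, limma adjusted p 0.0475). The other 9 were under 1 FPKM in every library, with S100a9, Ly6g and Retnlg at 0. The summed level of the 10 was 0.596 to 1.66 FPKM in WT and 1.40 to 3.95 FPKM in LRP1 KO, and its part in the Mmp9 values was not tested.

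**Figure D2:**
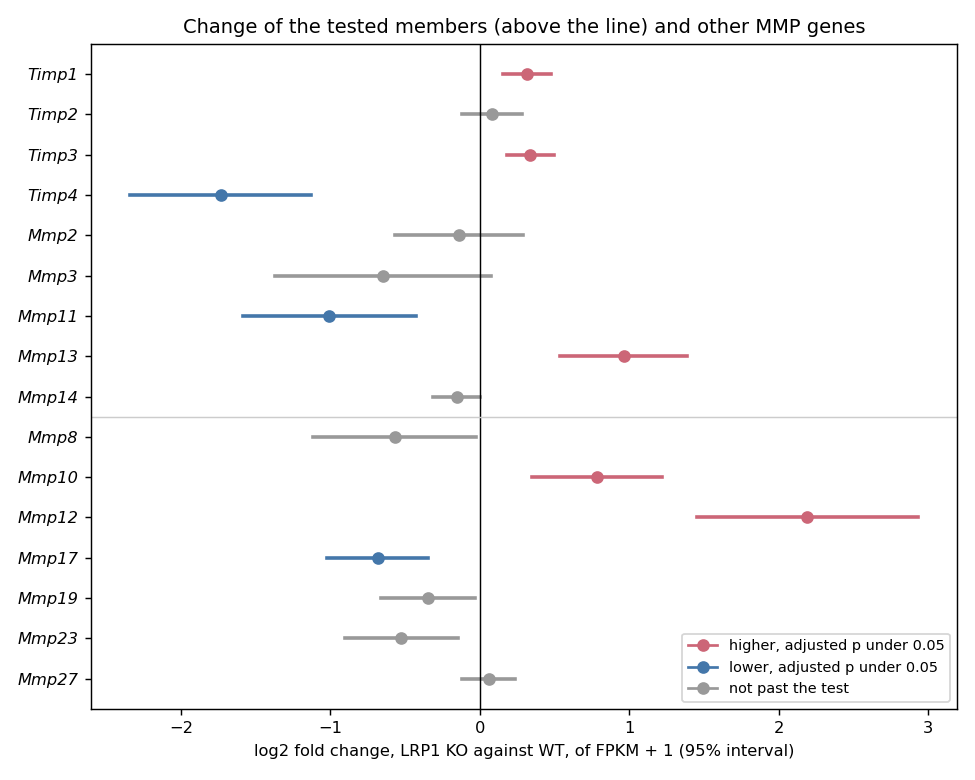
Log2 fold change of FPKM + 1 between LRP1 KO and WT (horizontal axis, points) with the 95% limma interval (bars) for the 9 tested members above the grey line and 7 other MMP genes below it. Red and blue mark adjusted p under 0.05; Timp4 at -1.73 and Mmp11 at -1.01 lie furthest to the left, and Mmp12 at 2.19 furthest to the right.

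The members that passed did so with the group as the only term of the fit. When the mean level of the endothelial markers was added as a term, Timp4 alone of the members passed, beside 1.55% of all tested genes. With that of the macrophage or the fibroblast markers no member did (0 of 9 by limma adjusted p), where 0.0615% and 1.84% of tested genes passed. At an unadjusted p under 0.05 there were 5, 5 and 4 of the 9 members with the endothelial, macrophage and fibroblast terms, against 11.1%, 19.9% and 14.5% of tested genes. With the endothelial and macrophage terms these were partly other members than those that passed above. The endothelial term's count included Mmp2 at 0.38 (SE 0.12) and not Mmp11. The macrophage term's count included Mmp3 at -2.42 (SE 0.55) and not Timp1 or Timp3. The macrophage level was separated between the groups, and with its term the median SE of the tested genes was 0.224 in place of 0.088. The estimates with these 3 terms were 0.42, 0.02 and 0.39 for Timp1, 0.34, 0.29 and 0.34 for Timp3, -1.01, -3.00 and -1.22 for Timp4, -0.43, -1.85 and -0.47 for Mmp11, and 0.67, 1.49 and 0.59 for Mmp13, in the order endothelial, macrophage and fibroblast. The estimates of Mmp2 and Mmp3 turned positive with the endothelial term, at 0.38 and 0.18, and with the fibroblast term, at 0.26 and 0.11. Marker levels and genotype cannot be told apart where both differ between the groups.

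**Figure D3:**
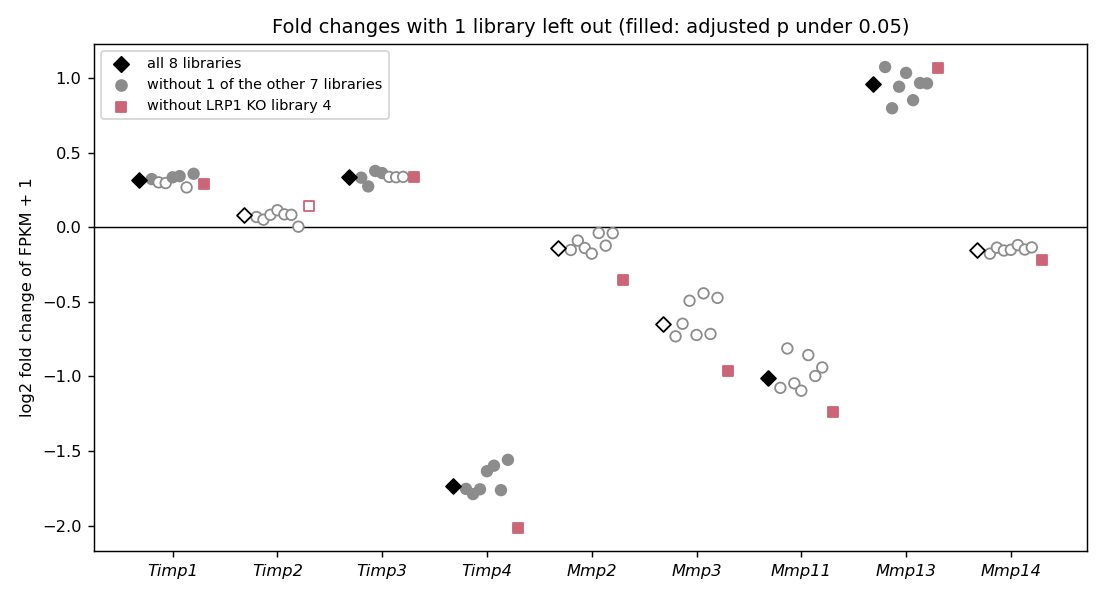
Log2 fold change of FPKM + 1 (vertical axis) of the 9 tested members with all 8 libraries (diamonds), without LRP1 KO library 4 (squares) and without each other library (circles), filled where the limma adjusted p was under 0.05. Leaving out LRP1 KO library 4 moves Mmp2, Mmp3 and Mmp14 past the test, while Timp4 and Mmp13 stay filled throughout.

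The inhibitor and protease sums give the same data per library. The summed FPKM of the 6 MMPs was 557.7, 639.9, 700.1 and 568.8 in WT libraries 1 to 4, and 397.7, 501.6, 410.1 and 714.1 in LRP1 KO libraries 1 to 4. The ratio of the TIMP sum to the MMP sum was 2.16 to 2.79 in WT, and 4.17, 3.46, 4.41 and 2.26 in LRP1 KO libraries 1 to 4. In LRP1 KO libraries 1 to 3 the ratio was above that of every WT library, and in library 4 it lay within the WT range. These sums follow the abundant genes, since Mmp14 held 35.6 to 52.4%, Mmp3 24.7 to 47.0%, and Mmp11 and Mmp13 at most 3.69% and 2.43% of the MMP sum. Mmp3 varied most in FPKM, from 98.4 to 328.8 against 207.9 to 259.5 for Mmp14, and in WT library 3 and LRP1 KO library 4 it was the larger of the pair. They are ratios of transcript levels and say nothing of active protein.

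**Figure D4:**
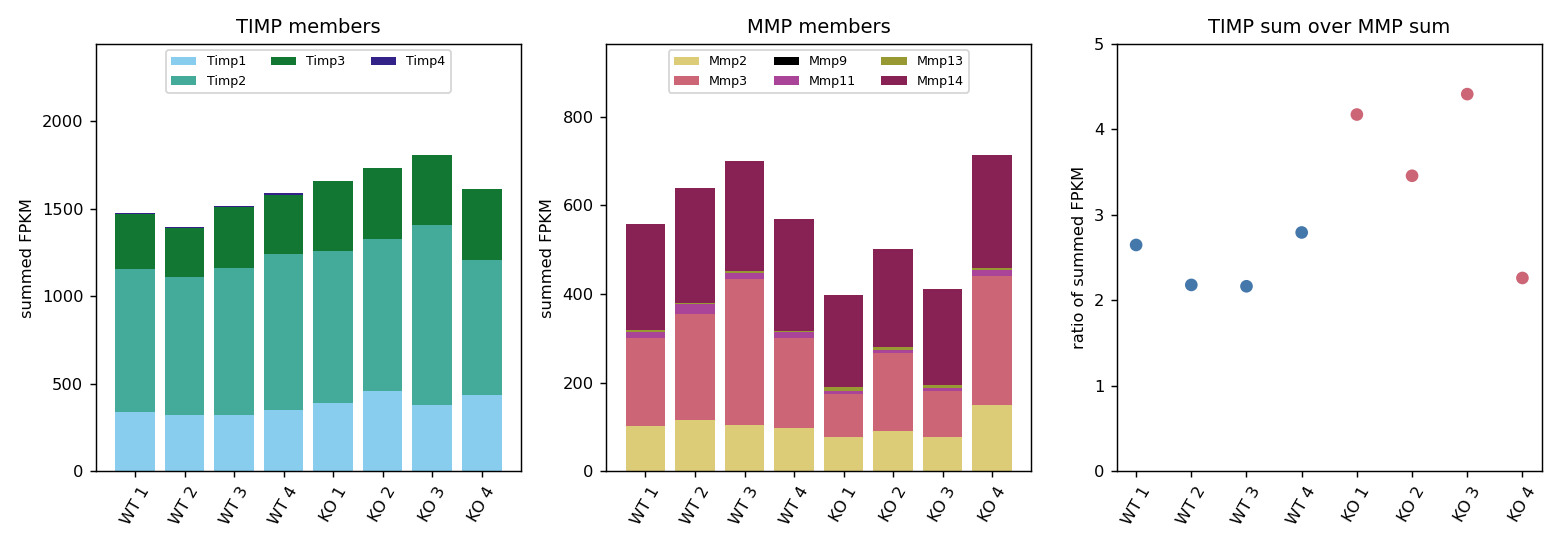
Summed FPKM of the TIMP members (left) and MMP members (middle), stacked by gene, and the ratio of these sums (right) in each of the 8 libraries. The ratio is 3.46 to 4.41 in LRP1 KO libraries 1 to 3 and 2.16 to 2.79 in WT, with LRP1 KO library 4 at 2.26.

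Of 17 other MMP genes, 7 could be tested, and 2 were higher and 1 lower in LRP1 KO, beside 6.27% and 7.31% of all tested genes. Mmp12, the macrophage metalloelastase, was listed at 0.801, 2.34, 2.79 and 1.76 FPKM in WT 1 to 4 against 15.6, 17.1, 12.8 and 5.64 FPKM in LRP1 KO 1 to 4. Its log2 fold change was 2.19 (SE 0.33, limma adjusted p 0.00524) with no overlap between groups. With the endothelial, macrophage and fibroblast marker levels as terms the estimates for Mmp12 were 1.53, 2.04 and 1.94. None of them passed (limma adjusted p 0.0907, 0.240 and 0.0708). Over the 8 libraries Mmp12 had a Pearson's r of 0.84, 0.85 and -0.69 with these 3 levels and of 0.96 with the mural level. These coefficients share the difference between groups, and the source of Mmp12 was not tested. Mmp10, or stromelysin-2, rose by 0.78 (SE 0.19, limma adjusted p 0.0316) and Mmp17, a membrane-anchored MMP, fell by 0.68 (SE 0.15, limma adjusted p 0.0219), and the groups overlapped in both. The Mmp10 call was lost without WT library 2, 3 or 4 or LRP1 KO library 1 or 2 (adjusted p 0.0504 to 0.0897), and that of Mmp17 without library 1, 2 or 3 of either group (adjusted p 0.0502 to 0.0699). The Mmp10 call was also lost without the filter on low values (limma adjusted p 0.0659), that of Mmp17 with the replicate block (limma adjusted p 0.0608), and both with each of the 3 marker terms. Mmp8, Mmp19, Mmp23 and Mmp27 did not pass, at limma adjusted p-values of 0.0659 to 0.634. Without LRP1 KO library 4, 6 of the 7 passed, where 26.5% of all tested genes did, 12.6% higher and 13.9% lower, among them Mmp8 at -0.81, Mmp19 at -0.48 and Mmp23 at -0.66. The other 10 were not tested, of which 9 were under 1 FPKM in every library and Mmp7, Mmp20 and Mmp21 were at 0 throughout.

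The Mmp genes of the chromosome 9 cluster number 10 and span 7272514 to 7699585 (GRCm38). In chromosomal order they are Mmp13, Mmp12, Mmp1b, Mmp3, Mmp1a, Mmp10, Mmp8, Mmp27, Mmp20 and Mmp7, and 6 were tested. Mmp13, Mmp12 and Mmp10 were higher, where 6.27% of all tested genes were. Mmp3, Mmp8 and Mmp27 did not pass, with estimates of -0.65, -0.57 and 0.06. Without LRP1 KO library 4, Mmp3 at -0.96 and Mmp8 at -0.81 passed as lower (limma adjusted p 0.0159 and 0.0104), where 26.5% of all tested genes passed.

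**Figure D5:**
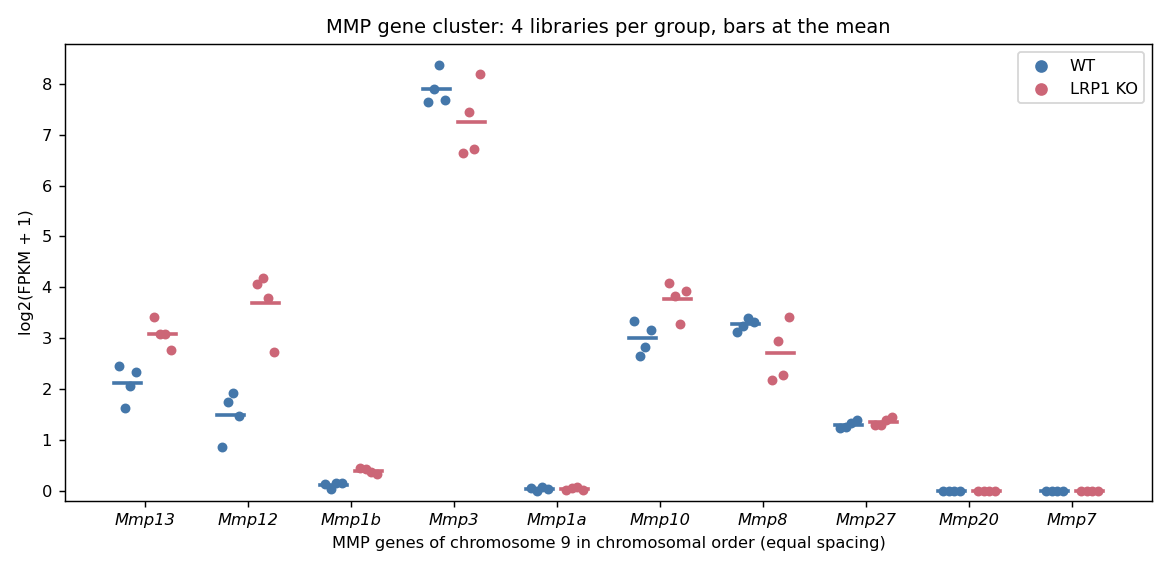
Log2(FPKM + 1) of the 10 MMP genes of chromosome 9 in chromosomal order (horizontal axis, equal spacing), where points are the 4 libraries per group and lines are means. Mmp13, Mmp12 and Mmp10 have higher means in LRP1 KO and Mmp3 and Mmp8 lower means, while Mmp20 and Mmp7 are at 0.

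All 4 TIMP genes overlap another gene, and 3 of them lie within synapsin genes on the opposite strand. Timp4 (chromosome 6, 115241892 to 115252205) lies in Syn2 and shares 90 exonic bases with it, Timp1 (chromosome X, 20870166 to 20874735) lies in Syn1 with 0 shared exonic bases, and Timp3 (chromosome 10, 86300372 to 86349506) lies in Syn3 with 1733 shared. Syn2 was listed at 3.65, 3.79, 4.71 and 5.13 FPKM in WT 1 to 4 against 2.76, 2.07, 2.43 and 3.34 FPKM in LRP1 KO 1 to 4, lower in every LRP1 KO library (log2 fold change -0.55, SE 0.13, limma adjusted p 0.0282). Its call was lost without 6 of the libraries, WT 2, 3 and 4 and LRP1 KO 1, 2 and 3, at adjusted p-values of 0.0575 to 0.0791, and without the filter on low values (adjusted p 0.0572). Syn3 was at most 0.151 FPKM. Mmp11 (chromosome 10, 75923222 to 75936496) overlaps Chchd10 on the opposite strand with 155 shared exonic bases, and Chchd10 fell by 0.87 (SE 0.19, limma adjusted p 0.0226), a call lost without WT library 1 or 2 or LRP1 KO library 1, 2 or 3 (adjusted p 0.0562 to 0.0669), without the filter (adjusted p 0.0510) or with the replicate block (adjusted p 0.0553). With the 3 marker terms neither passed, at limma adjusted p-values of 0.284 to 0.435 for Syn2 and 0.235 to 0.406 for Chchd10. Whether the authors' values use strand is not stated, so reads of Timp4 and Syn2, and of Mmp11 and Chchd10, cannot be told apart where exons overlap. Timp2 holds Cep295nl within its span on the same strand, with 0 shared exonic bases.

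Genes that act on MMPs and TIMPs or bind them formed a further list of 18, of which 15 were tested. Lrp1 is one of them, and its fall is fixed by the deletion. Of the other 14, 3 were higher and 1 lower, where 13.6% of all tested genes passed, and with each of the 3 marker terms none of these 14 passed by limma. With the endothelial, macrophage and fibroblast terms 5, 9 and 5 of the 15, Lrp1 included, had an unadjusted p under 0.05, against 11.1%, 19.9% and 14.5% of tested genes. Cd44, which anchors MMPs at the cell surface, and Tfpi2, an inhibitor of serine proteases, rose by 1.08 and 1.01 on the log2(FPKM + 1) scale (limma adjusted p 0.0170 and 0.0188). Plau, which encodes urokinase, fell by 0.46 (limma adjusted p 0.0201). The call for Cd44 was lost without WT library 2 (adjusted p 0.0568), Tfpi2 without WT library 2 or LRP1 KO library 3 (adjusted p 0.0574 and 0.0551), and Plau without LRP1 KO library 2 or 3 (adjusted p 0.0574 and 0.0584). Reck, a membrane inhibitor of MMPs, had an estimate of -0.02 with a 95% interval of -0.31 to 0.28, and Furin, which activates proMMP14 and proMMP11, one of -0.00209 with an interval of -0.14 to 0.14. Of 18 matrix genes that MMPs can cut, 2 passed, a share near the 13.6% of all tested genes. Vcan, the gene of versican, rose by 0.58 (limma adjusted p 0.0283) and Nid2, the gene of nidogen-2, fell by 0.67 (limma adjusted p 0.0203). Each call depended on single libraries, and was lost for Vcan without WT library 1, 2 or 3 or LRP1 KO library 2 or 3 (adjusted p 0.0578 to 0.0810), without the filter (adjusted p 0.0575) or with the replicate block (adjusted p 0.0617), and for Nid2 without WT library 2 or 3 or LRP1 KO library 1, 2 or 3 (adjusted p 0.0510 to 0.0663). The other 16, among them Col4a1, Col4a2 and Fn1, did not pass.

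The genes whose log2(FPKM + 1) across the 8 libraries was most like that of each changed member were taken by a fixed rule. For Timp4 these were Ppp1r3b, Etfdh and Slc16a9, with Pearson's r of 0.997, 0.994 and 0.993. For Mmp11 they were Slc39a3, Pamr1 and C3 (0.996, 0.994 and 0.992), and for Mmp13 they were Tnfrsf12a, Enho and Cryab (0.989, 0.984 and 0.984). For Timp1 they were C3ar1, P2ry6 and Mrpl15 (0.983, 0.974 and 0.973), and for Timp3 they were Riok3, Yipf5 and Tmem65 (0.981, 0.978 and 0.977). These coefficients are descriptions over 8 libraries that share the difference between groups, and the genes were the best among 11389 tested.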

How the data were processed

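RNA sequencing was analysed in 8 libraries, 4 WT and 4 LRP1 KO, grouped by their titles. The authors deposited FPKM values that the file shows to be quantile normalized across libraries, with no counts. FPKM was read from the values, which TPM treated the same way would resemble. The submitters' processing notes name TopHat2, Cufflinks and mm10, whereas the study's methods describe STAR and featureCounts counts, which the file does not hold. The values carry no depth, so no counting error was computed, and a broad shift in RNA would be spread over all genes. Here limma 3.58.1 (R 4.3.3, lmFit and eBayes with trend) was fitted to log2(FPKM + 1) for genes with at least 1 FPKM in at least 4 libraries, with Benjamini-Hochberg adjustment. A fold change on this scale understates that of low genes. The code was tested on simulated data. Gene places are from GENCODE M21 (GRCm38), sequences from RefSeq. Alternatives are given in the closing section, of which the Y-linked term was added after seeing the data. The members and gene lists were chosen with earlier results of these data known. All members were named, with genes of the lists that passed the test, overlapping genes, and the 3 best correlated genes per changed member. The sums of marker lists rest on hand-written lists. A gene of the regulator list that is included in its counts is not reported here.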

Additional observations from a re-analysis of the deposited data

Results flagged for a closer look

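In 48 groups of 4 libraries examined by Dixon's test, where chance flags about 1 in 20, 1 value stood out. Mmp11 in WT library 2 was at 23.6 FPKM, against 12.7 to 14.1 FPKM in the other WT libraries. Without that library Mmp11 was still lower in LRP1 KO, at a log2 fold change of -0.81 (SE 0.24), but no longer passed (limma adjusted p 0.0867).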

How the results depend on the processing

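The number of genes past the test was 1547 with the main settings, 3003 with library weights, 1013 with the replicate block, 177, 7 and 209 with endothelial, macrophage and fibroblast terms and 1004 with the Y-linked term, and 512 to 3021 without 1 library. With a 2-fold change it was 184, then 275 with a pseudocount of 0.1, 282 with weights, 95, 7 and 108 with those 3 marker terms, and 133 to 339 without 1 library. Members past the test were 5, then 6 with weights, Mmp14 being the one added, 1, 0 and 0 with the endothelial, macrophage and fibroblast terms and 2 to 8 without 1 library; other MMPs were 3, then 6 with weights, 2 with the replicate block, 0, 0 and 0 with the marker terms (3, 5 and 3 of 7 at an unadjusted limma p under 0.05), and 1 to 6 without 1 library. Regulators, Lrp1 included, were 5, then 1, 1 and 1 with the marker terms, Lrp1 being the 1, and 3 to 6 without 1 library. Substrates were 2, then 1 without a filter on low values, 5 with weights, 1 with the replicate block, 0, 0 and 0 with the marker terms (2, 5 and 8 of 18 at an unadjusted limma p under 0.05, where 11.1%, 19.9% and 14.5% of all tested genes were), and 0 to 5 without 1 library. Leaving out LRP1 KO library 4 gave the highest counts of genes and members, and WT library 2 (512 genes) and LRP1 KO library 2 (2 members) the lowest. After rescaling the libraries 787 genes were higher and 766 lower, against 714 and 833. Signs reversed, without passing, for Timp2 (-0.048), Mmp2 (0.38), Mmp3 (0.18), Mmp14 (0.000402), Mmp8 (0.10) and Mmp19 (0.023) with the endothelial term and for Mmp2 (0.26), Mmp3 (0.11) and Mmp8 (0.00294) with the fibroblast term. The cause was not tested. Whether the replicate numbers pair the libraries is not stated. Same-numbered libraries correlated in their deviations from the group means at 0.158, 0.141, 0.340 and -0.312. Libraries with unlike numbers correlated at -0.404 to 0.377, so these values do not decide it. With the replicate block 4 members passed, Mmp11 being the one lost (-1.01, adjusted p 0.0525). Mmp11 also missed the threshold without a filter (adjusted p 0.0725) and with the Y-linked term (adjusted p 0.0569). The unknown depth limits the low genes, above all Mmp9.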

Other observations

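Outside the members, the low gene Mmp1b ranged from 0.0242 to 0.116 FPKM over the WT libraries. Its range over the LRP1 KO libraries was 0.254 to 0.355 FPKM, with no overlap between groups. Every LRP1 KO library lay above every WT library in 8.84% of tested genes. Mmp1b (chromosome 9, 7368239 to 7388047, minus strand) overlaps the end of Mmp12 (7344381 to 7369499, plus strand). Whether reads of Mmp12 entered the Mmp1b values was not tested. Mmp16, a membrane-type MMP, ranged from 0.529 to 0.931 FPKM over the WT libraries and was 2.08, 1.34, 2.39 and 0.658 FPKM in LRP1 KO 1 to 4. Mmp1b and Mmp16 were too low for the test. Plaur, the urokinase receptor gene, was above every WT library in all LRP1 KO libraries, from 40.9 ± 7.73 to 53.7 ± 6.56 FPKM (SD, n = 4 each), and did not pass (limma adjusted p 0.0839).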
